A study of Dunaliella salina with 12 samples.

Results

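Of the 82333 assembled genes measured in the alga Dunaliella salina, 105 had transcript levels on opposite sides of the control after added NaCl and after H2O2. They were picked on measured values. With each difference taken between group means of log2(FPKM + 1), a gene had to differ from control by at least 0.8 with NaCl and by at least 0.4 the other way with H2O2. FPKM correct the number of sequenced fragments for the length of a transcript and for the size of its library. The 3 NaCl libraries also had to lie all on one side of the 3 control libraries, and the 3 H2O2 libraries all on the other. A mean of at least 2 FPKM over the 12 libraries and a control mean below 1000 FPKM were required, limits that 18245 genes met. Of the members, 38 were higher with NaCl and lower with H2O2 (the NaCl-high class), and 67 were lower with NaCl and higher with H2O2 (the NaCl-low class). With libraries rescaled by median ratios, the same limits picked 56 and 31 genes, of which 36 and 30 are among these 38 and 67.

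All libraries came from strain 435 cells labelled as 5 days old, grown at 25 °C under 8000 lx, with light for 16 h and darkness for 8 h of each day. Cells were spun down and kept for 2 h in fresh medium with 1.5 M NaCl, a content that the labels do not state separately for the control. The control had nothing added, and the other groups received a further 1.5 M NaCl, 1.5 M sorbitol or 0.4 mM H2O2, with 3 libraries in each of the 4 groups. Whether the 3 libraries of each group were separate cultures is not in the labels, and the p-values therefore rest on a spread among libraries that may be technical.

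D. salina lacks a rigid cell wall and lives in salt lakes, where it balances outside salt by making and degrading glycerol. Added NaCl raises both the ion load and the osmotic pressure, whereas sorbitol, a sugar alcohol, raises the osmotic pressure without adding ions. NaCl dissociates in water, so equal molar additions of the 2 solutes do not give equal osmotic pressure. H2O2 is an oxidant that cells remove with catalase and peroxidases, and it serves as a signal at low levels. The IDs of the table carry no gene names, and 0 of them matched the reference table of D. salina genes, so no function can be attached to any member and none is described by role or sequence.

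The libraries listed 37005 to 42727 genes above 0, with 37740 to 38002 in the H2O2 group, and relative depth estimated from low values ran from 0.917 to 1.21. The absolute depth is unknown.

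**Figure D1:**
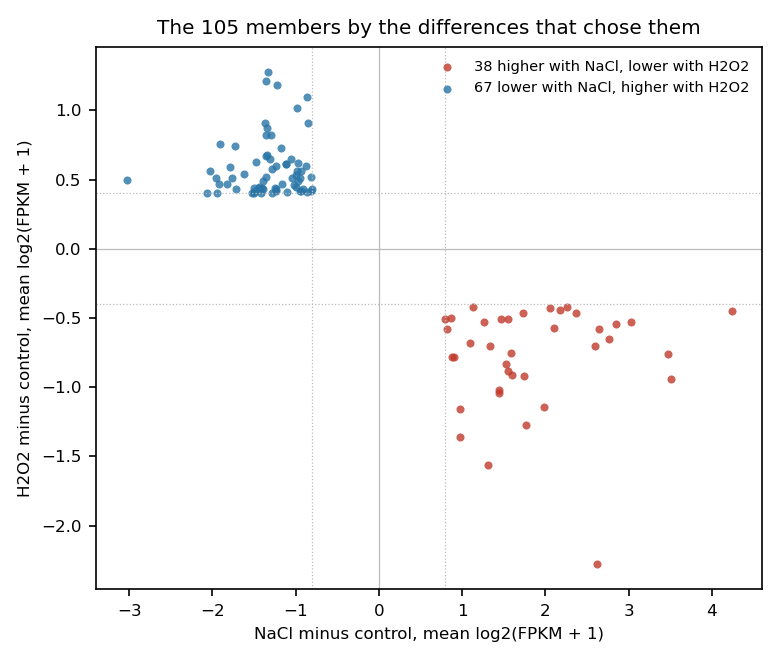
Each point is 1 of the 105 members, with NaCl minus control on the x axis and H2O2 minus control on the y axis, both as differences of group means of log2(FPKM + 1); dotted lines mark the limits used to pick members. The 38 NaCl-high members reach 4.24 on the x axis and -2.28 on the y axis, and the 67 NaCl-low members run from 0.40 to 1.28 on the y axis.

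The values that picked the members were uneven in size. In the NaCl-high class the median difference was 1.59 with NaCl, with a range of 0.80 to 4.24, and -0.69 with H2O2, with a range of -2.28 to -0.42. In the NaCl-low class it was -1.30 with NaCl, from -3.03 to -0.80, and 0.51 with H2O2, from 0.40 to 1.28. The medians over all 27038 genes tested were 0.03 and 0.07. The H2O2 side was the smaller one in both medians, but its limit of 0.4 was also below the 0.8 set for NaCl, so nothing is read from this. A H2O2 difference of 0.5 or more in size was found in 31 of the 38 and 37 of the 67 members, and in 4388 of the 27038 genes tested. The limit of 0.4 raises the share in the members. A limma fit (Benjamini-Hochberg adjustment over all genes tested, adjusted p under 0.05) called 37 NaCl-high members higher with NaCl, against 18.4% of all genes tested, and 66 NaCl-low members lower, against 17.4%. For H2O2 it called 1 NaCl-high member lower, c28807_g1, against 0.0740% of all genes, and 1 NaCl-low member higher, c24685_g1, against 0.0370%; the latter was named after its values were seen. Since the choice used both contrasts, nothing is read from these counts.

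Members close to the limits show how the choice was made. The NaCl-high member with the smallest H2O2 difference had -0.417, with mean levels of 65.5 FPKM in control, 145 with NaCl and 48.7 with H2O2. The nearest gene left out had -0.377, with 7.12, 18.2 and 5.30 FPKM. At the NaCl limit the values were 0.802 inside and 0.797 outside. For the NaCl-low class the nearest H2O2 values were 0.401 inside and 0.395 outside, and the NaCl values were -0.803 inside and just short of 0.8 in size outside. The H2O2 limit of the NaCl-low class cut through a dense range: 201 genes met every other condition and had a smaller H2O2 difference, against 28 for the NaCl-high class.

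Each library was also left out in turn, members were picked from the rest, and the side of the library left out was read. Of the NaCl-high genes so picked, H2O2 replicates 1, 2 and 3 lay below every control library in 39 of 49, 36 of 70 and 34 of 45. Those are 79.6%, 51.4% and 75.6%, against 19.1%, 18.6% and 21.6% of all genes within the level limits. Of the NaCl-low genes, the same replicates lay above every control library in 75.7%, 59.2% and 52.2%, against 40.6%, 48.1% and 39.1%. For the NaCl libraries the shares were 100%, 100% and 76.6% in the NaCl-high class, and 95.4%, 90.8% and 92.6% in the NaCl-low class. The matching shares over all genes within the limits lay between 33.8% and 47.0%. The background genes were not picked on the control libraries, whereas the genes set against them were, so a control value that was high or low by chance raises the share on the rule's side. With a control library left out instead, that library lay between the NaCl and H2O2 libraries in 72.5% to 93.2% of NaCl-high genes and in 62.6% to 69.9% of NaCl-low genes. The matching shares over all genes within the limits were 2.64% to 3.09% and 9.31% to 10.4%. The picked genes already had their NaCl and H2O2 libraries on opposite sides of the remaining control libraries, so the choice favoured such a place. Among the H2O2 and NaCl libraries, the shares closest to their background were those of H2O2 replicates 2 and 3 in the NaCl-low class. Membership moved with single libraries: 70 NaCl-high genes were picked without H2O2 replicate 2. NaCl-low genes numbered 107 without control replicate 2, 126 without control replicate 3, 130 without H2O2 replicate 2 and 159 without H2O2 replicate 3.

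Sorbitol entered the choice of members solely through the mean over all 12 libraries, and it divided the NaCl-high class. Of its 38 genes, 15 rose with sorbitol against control and 11 fell, and 12 were not called either way in the same limma fit. That fit called 6.70% of all genes tested higher and 6.47% lower, and 9.42% and 7.77% of those within the level limits. The 11 that fell are among 15 genes with a sorbitol mean under 0.5 FPKM. Of those 15, 13 met the level limit through the NaCl group, so neither 6.47% nor 7.77% is a fair background for the 11. In the NaCl-low class 20 of 67 genes fell with sorbitol, none was called higher, and 47 were not called; 1 was higher and 32 were lower at an unadjusted p under 0.05. Without control replicate 2, the number of NaCl-low genes that fell was 13. The comparison shares its control libraries with the choice of members, so it is not independent of it. In pooled cells, fewer cells holding a transcript and less transcript per cell cannot be told apart.

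**Figure D2:**
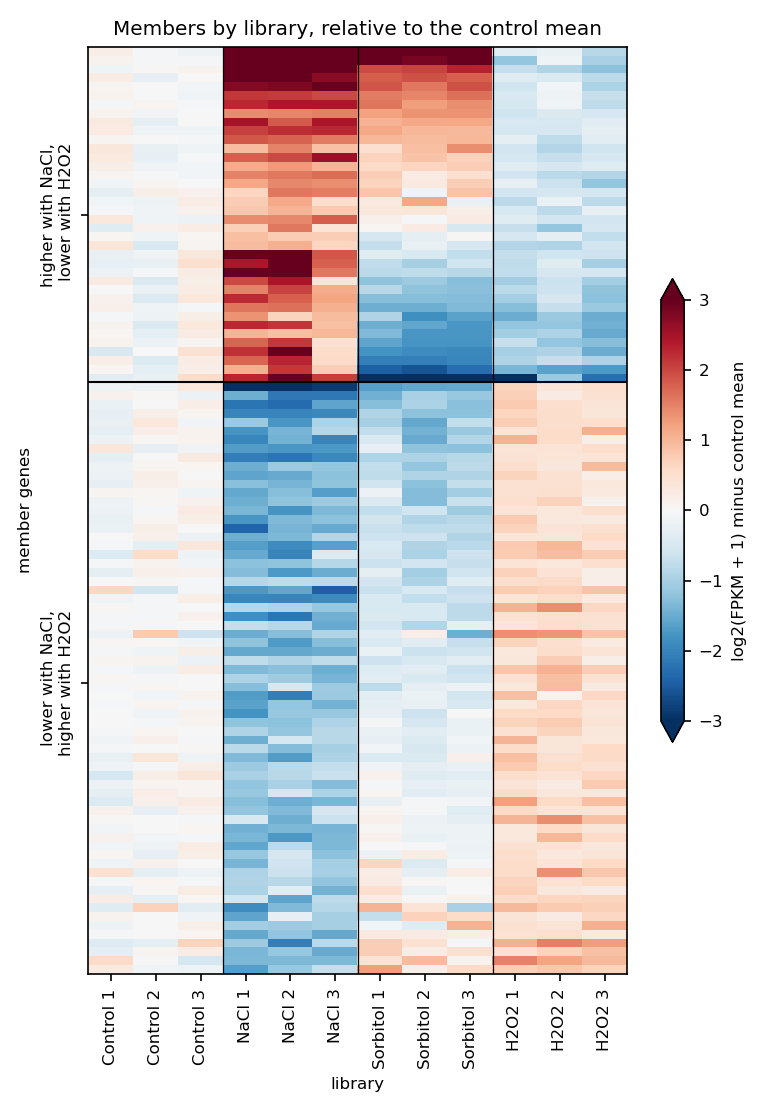
Rows are the 105 members and columns the 12 libraries; colour is log2(FPKM + 1) minus the gene's control mean, with values beyond 3 drawn at the end of the scale. The NaCl-high class lies above the black line with its sorbitol columns running from the 15 genes called higher to the 11 called lower, and the NaCl-low class lies below it.

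The sorbitol mean lay between those of control and NaCl in 20 NaCl-high and 54 NaCl-low genes. It was further from control than the H2O2 mean, on the H2O2 side, in 14 NaCl-high genes and in 0 NaCl-low genes, and it passed the NaCl mean in 0 members of either class. No share over all genes was taken for these positions. The choice of members required a gap of at least 0.8 between control and NaCl, which favours a place within it, so nothing is read from these counts. All 3 sorbitol libraries lay above all 3 control libraries in 17 NaCl-high genes and 2 NaCl-low genes, against 19.6% of all genes tested. They lay below in 15 and 35, against 14.3%. Among the 18245 genes within the level limits, they lay above control in 4684 and below in 2967. The 15 NaCl-high genes with them below control are those with a sorbitol mean under 0.5 FPKM. Of these, 13 met the level limit through the NaCl group, so no share of other genes is a fair background for the 15.

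The median control level of the 15 NaCl-high genes that rose with sorbitol was 14.0 FPKM, against 5.67 for the class and 11.6 for all genes within the level limits. The median differences from control were 2.18 with NaCl, 1.30 with sorbitol and -0.51 with H2O2. Summed over the 15 genes, control libraries held 1382 to 1522 FPKM, NaCl libraries 7139 to 8100, sorbitol libraries 4206 to 4722 and H2O2 libraries 957.3 to 1052. The choice of members fixed the order of H2O2, control and NaCl in each gene, and the call with sorbitol placed it above control. The 3 most abundant genes made up 77.6% of the control sum.

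c15748_g1 had the largest difference with NaCl of all 105 members and, within its class, the highest with sorbitol. Its control libraries held 5.85, 4.89 and 4.37 FPKM, its NaCl libraries 99.9, 124 and 115, its sorbitol libraries 51.1, 52.3 and 62.6, and its H2O2 libraries 3.83, 4.24 and 2.35. NaCl libraries were all above sorbitol libraries, and both lay far above control. The difference from control was 4.24 with NaCl and -0.45 with H2O2, and sorbitol raised it by 3.22 ± 0.17 (log2, SE, limma adjusted p 1.2e-06).

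c28807_g1 was next with NaCl. It held 109, 123 and 128 FPKM in control, 1442, 1450 and 1255 with NaCl, 470, 488 and 598 with sorbitol, and 74.2, 63.7 and 50.7 with H2O2. The 4 groups were all apart from each other. Sorbitol was 2.10 ± 0.13 above control (log2, SE, limma adjusted p 3.8e-06), and NaCl a further 1.42 ± 0.13 above sorbitol (adjusted p 2.6e-05).

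c30737_g1 had a smaller gap between the 2 solutes than these. It held 186, 167 and 164 FPKM in control, 1890, 1969 and 1926 with NaCl, 1389, 1243 and 1523 with sorbitol, and 76.7, 156 and 86.5 with H2O2. The NaCl and sorbitol libraries did not overlap, yet their difference of 0.48 ± 0.20 (log2, SE) missed the threshold at a limma adjusted p of 0.11. Sorbitol was 3.00 ± 0.20 above control (adjusted p 4.9e-06). H2O2 replicate 2 reached close to the lowest control library, while the other two were well below. The most abundant member of the class, described after its values were seen, held 786 to 867 FPKM in control libraries, 2418 to 2979 after NaCl, 1576 to 1649 after sorbitol and 486 to 667 after H2O2.

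**Figure D3:**
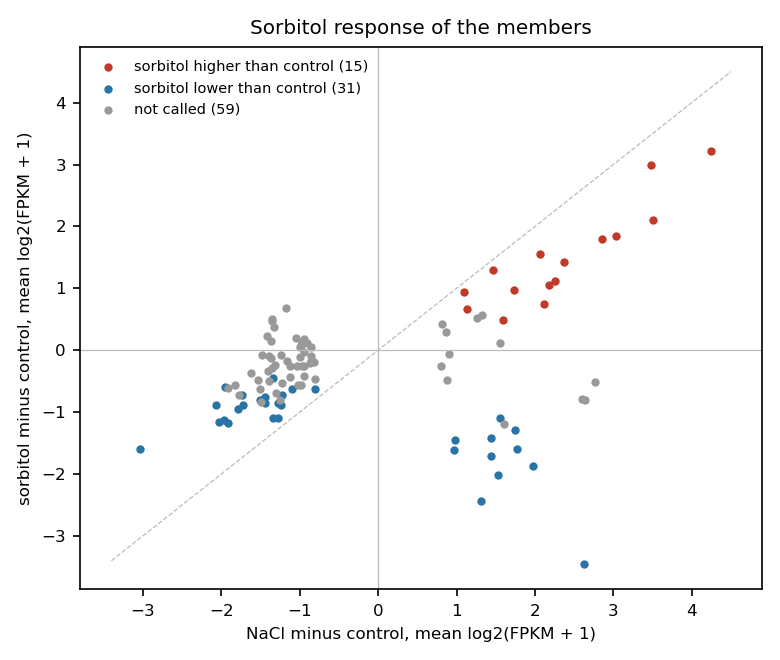
Each point is 1 of the 105 members, with NaCl minus control on the x axis and sorbitol minus control on the y axis, both as differences of group means of log2(FPKM + 1); colours give the sorbitol call and the dashed line marks equal differences. NaCl-high genes on the right divide into 15 that rose with sorbitol and 11 that fell, and the 67 NaCl-low genes on the left lie above the dashed line.

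The other end of the NaCl-high class had almost no transcript with sorbitol. In 15 of the 38 genes the sorbitol mean was under 0.5 FPKM, a limit set after the values were seen. The highest of these means was 0.370 FPKM, and the next gene of the class stood at 2.96. Of the 15, 11 fell with sorbitol and 4 were not called, and these 11 are all of the NaCl-high genes that fell. Over the 9 libraries without NaCl, 13 of the 15 had a mean below 2 FPKM, so they met the level limit through the NaCl group, where they are high; this was so for 1 of the other 23 NaCl-high genes. No share of other genes is therefore a fair background for this count. Of the 45 sorbitol values of these genes 18 were listed at 0, and the highest was 0.920 FPKM. The IDs carry no name or sequence, and whether these 15 transcripts belong to D. salina was not tested.

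The same 15 genes were lower with H2O2 than the rest of the class. Their median level was 2.42 FPKM in control libraries, 11.4 after NaCl, 0.070 after sorbitol and 0.407 after H2O2, whereas the other 23 genes had 11.2, 37.4, 16.6 and 7.23. The median H2O2 difference was -1.02 in the 15 and -0.53 in the 23, a description since H2O2 picked the members. A H2O2 difference of 0.8 or more in size was found in 12 of the 15 and in 1 of the 23. In the 15, the sorbitol mean was further below control than the H2O2 mean in 14, and the 11 that fell with sorbitol were not called between sorbitol and H2O2. All 11 rose from sorbitol to NaCl.

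c31883_g1 had the lowest sorbitol value relative to control and the largest H2O2 difference of all members. It held 7.78, 8.43 and 15.1 FPKM in control and 53.0, 123 and 45.5 with NaCl. It was listed at 0 in all 3 sorbitol libraries and at 0, 4.06 and 1.28 FPKM with H2O2. The groups did not overlap except that sorbitol and the first H2O2 library were both at 0. On the log2(FPKM + 1) scale, where a 0 still gives a finite difference, sorbitol was -3.46 ± 0.51 from control (SE, limma adjusted p 0.00089).

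c29005_g1 showed the same order of groups at lower levels. It held 6.38, 4.83 and 7.12 FPKM in control, 13.8, 29.6 and 10.7 with NaCl, 0.30, 0.17 and 0.44 with sorbitol, and 1.74, 1.32 and 1.14 with H2O2. No groups overlapped, and sorbitol was the lowest. Sorbitol was -2.44 ± 0.30 from control (log2, SE, limma adjusted p 0.00030), and H2O2 differed from control by -1.56.

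The NaCl libraries were uneven in these 15 genes. The within-group SD of log2(FPKM + 1) with NaCl had a median of 0.76 in them, against 0.15 in the other 23 NaCl-high genes and 0.22 over all genes tested; in control their median SD was 0.30. NaCl replicate 3 was the lowest of its group in 13 of the 15, a share of 86.7%, against 47.8% of the other 23 NaCl-high genes and 24.8% of all genes tested. Replicate 2 was the highest in 11, a share of 73.3%, against 47.8% of the other 23 and 42.1% of all genes tested. The 15 were picked on their NaCl values, and most met the level limit through them, so the share over all genes tested is no fair background. The level in replicate 2 was a median of 2.78 times that in replicate 3, against 1.03 times in the other 23 genes. Summed over the 15 genes, the NaCl libraries held 206, 337.7 and 118.5 FPKM, and the control libraries 38.96, 32.25 and 53.68. The sorbitol sums were 0.95 to 3.12 and the H2O2 sums 6.16 to 14.08 FPKM. The choice of members fixed the order of H2O2, control and NaCl libraries in each gene, so nothing is read from that order in the sums. The part of this unevenness in the NaCl result was not tested. Among NaCl-high genes picked without NaCl replicate 1, 2 or 3, those near 0 with sorbitol numbered 9, 8 and 21. NaCl values do not enter the sorbitol difference itself. It was called lower in 13 of the 38 genes when NaCl replicate 3 was left out of the fit, an alternative added after the data were seen.

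**Figure D4:**
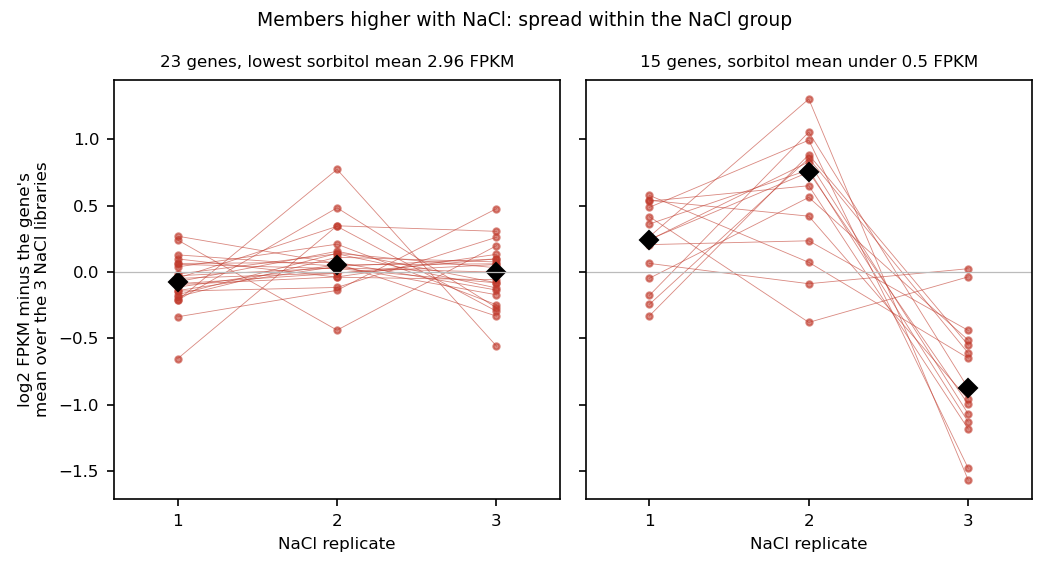
For each of the 38 NaCl-high genes, the log2 FPKM in the 3 NaCl libraries is drawn relative to the gene's own mean over them (y axis) by replicate number (x axis); lines join the values of 1 gene and diamonds mark the median. In the 15 genes with a sorbitol mean under 0.5 FPKM replicate 3 was the lowest library in 13, and in the other 23 genes it was the lowest in 11.

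The remaining NaCl-high genes were not called with sorbitol. There were 12, of which 4 are among those near 0 with sorbitol. Their median differences were 1.29 with NaCl, -0.16 with sorbitol and -0.61 with H2O2. NaCl was above sorbitol in 32 of the 38 genes of the class, against 8.80% of all genes tested and 11.5% of those within the level limits. It was called below in none, and in 0 also at an unadjusted p under 0.05. Sorbitol was above H2O2 in 19, against 3.96% and 5.29%, and below in none, with 3 below at an unadjusted p under 0.05 (limma). These comparisons share NaCl or H2O2 libraries with the choice of members, so their direction was partly set by it. All genes near 0 with sorbitol are among the 32, and 13 of those 15 met the level limit through the NaCl group. Neither 8.80% nor 11.5% is therefore a fair background for the 32.

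In the NaCl-low class the sorbitol mean lay between control and NaCl in 54 of 67 genes, a gap required by the choice of members. The median level of the class was 5.66 FPKM in control libraries, 1.62 after NaCl, 4.21 after sorbitol and 9.02 after H2O2. Summed over the 67 genes, control libraries held 774.7 to 855.6 FPKM, NaCl libraries 275.7 to 342.9, sorbitol libraries 529.2 to 609.4 and H2O2 libraries 1221 to 1290. The order NaCl, control, H2O2 was required of each gene, and the sorbitol sums lay between those of NaCl and control. The 4 most abundant genes made up 42.6% of the control sum. NaCl was below sorbitol in 48 of the 67 genes, against 11.9% of all genes tested. Sorbitol was below H2O2 in 49, against 6.34%, with the NaCl and H2O2 libraries again shared with the choice. Some of the 49 met the level limit only through the H2O2 group, where they are high. The share of 6.34% is therefore no fair background for the 49. In 12 genes sorbitol was below control and below H2O2 and NaCl was below sorbitol. In another 21 sorbitol was not called against control but lay above NaCl and below H2O2. No share over all genes was taken for these patterns. The required order of NaCl, control and H2O2 favours both, so nothing is read from them.

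The 20 NaCl-low genes that fell with sorbitol had a median control level of 10.0 FPKM, against 4.71 for the 47 not called. Their median differences from control were -1.47 with NaCl, -0.87 with sorbitol and 0.46 with H2O2. In the 47 they were -1.17, -0.20 and 0.52.

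c11037_g1 had the largest NaCl difference of the class and the lowest sorbitol difference. It held 8.27, 8.12 and 11.9 FPKM in control, 0.29, 0.11 and 0.41 with NaCl, 2.26, 2.48 and 2.53 with sorbitol, and 15.3, 12.2 and 13.5 with H2O2. The 4 groups were separate, with sorbitol between NaCl and control. Sorbitol was -1.59 ± 0.18 from control (log2, SE, limma adjusted p 0.00016), and NaCl -1.44 ± 0.18 from sorbitol (adjusted p 0.00016).

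c177_g1 had the same order. It held 4.54, 5.94 and 7.18 FPKM in control, 0.62, 0.48 and 0.77 with NaCl, 2.58, 2.59 and 2.83 with sorbitol, and 8.18, 7.74 and 8.04 with H2O2. Its highest control library came within 1 FPKM of the lowest H2O2 library, and its H2O2 difference of 0.40 was at the limit. Sorbitol fell by 0.89 ± 0.17 from control (log2, SE, limma adjusted p 0.0055).

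c49250_g1 was among the lowest with sorbitol too, at lower levels. It held 3.82, 3.56 and 2.95 FPKM in control, 0.61, 0 and 0 with NaCl, 0.63, 1.25 and 1.02 with sorbitol, and 6.24, 4.23 and 5.07 with H2O2. NaCl and sorbitol were both far below control and nearly met each other. Sorbitol was -1.18 ± 0.25 from control (log2, SE, limma adjusted p 0.0087), and with a pseudocount of 0.1 the adjusted p was 0.10.

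The members with the largest H2O2 differences of this class were at low levels, and neither was called with sorbitol against control. c62072_g1 held 2.27, 2.46 and 5.75 FPKM in control, 1.0, 0 and 1.41 with NaCl, 6.03, 4.81 and 3.12 with sorbitol, and 7.88, 11.1 and 9.16 with H2O2. Sorbitol overlapped control, with a difference of 0.38 ± 0.36 (log2, SE, limma adjusted p 0.55). c26789_g4 was listed at 0 in all 3 NaCl libraries and held 2.80, 1.47 and 0.77 FPKM in control, 2.46, 3.91 and 1.74 with sorbitol, and 6.18, 4.75 and 4.03 with H2O2. Its control values spread from 0.77 to 2.80, and its sorbitol difference of 0.50 ± 0.31 did not pass the test (log2, SE, limma adjusted p 0.33).

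c75846_g1 had the highest sorbitol difference of the class. It held 2.77, 1.94 and 1.82 FPKM in control, 0, 0.44 and 0.92 with NaCl, 6.52, 2.54 and 3.79 with sorbitol, and 4.13, 4.51 and 4.01 with H2O2. Sorbitol and control overlapped in 1 library, and the difference of 0.68 ± 0.30 did not pass the test (log2, SE, limma adjusted p 0.17). It was the sole gene of these 3 in which the sorbitol and H2O2 ranges overlapped, and NaCl was -1.84 ± 0.30 from sorbitol (adjusted p 0.00094).

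Other NaCl-low members were described after their values were seen. c24685_g1, the one called higher with H2O2, held 19.0, 17.6 and 23.1 FPKM in control, 7.30, 7.75 and 6.55 with NaCl, 14.9, 15.7 and 12.3 with sorbitol, and 35.9, 41.6 and 33.9 with H2O2. Its 4 groups were separate, and sorbitol was -0.45 ± 0.13 from control (log2, SE, limma adjusted p 0.044). The most abundant gene of the class held 79.2 to 111 FPKM in control libraries, 27.8 to 52.8 after NaCl, 35.6 to 58.2 after sorbitol and 130 to 205 after H2O2. In that gene NaCl and sorbitol overlapped, and both stayed below control.

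**Figure D5:**
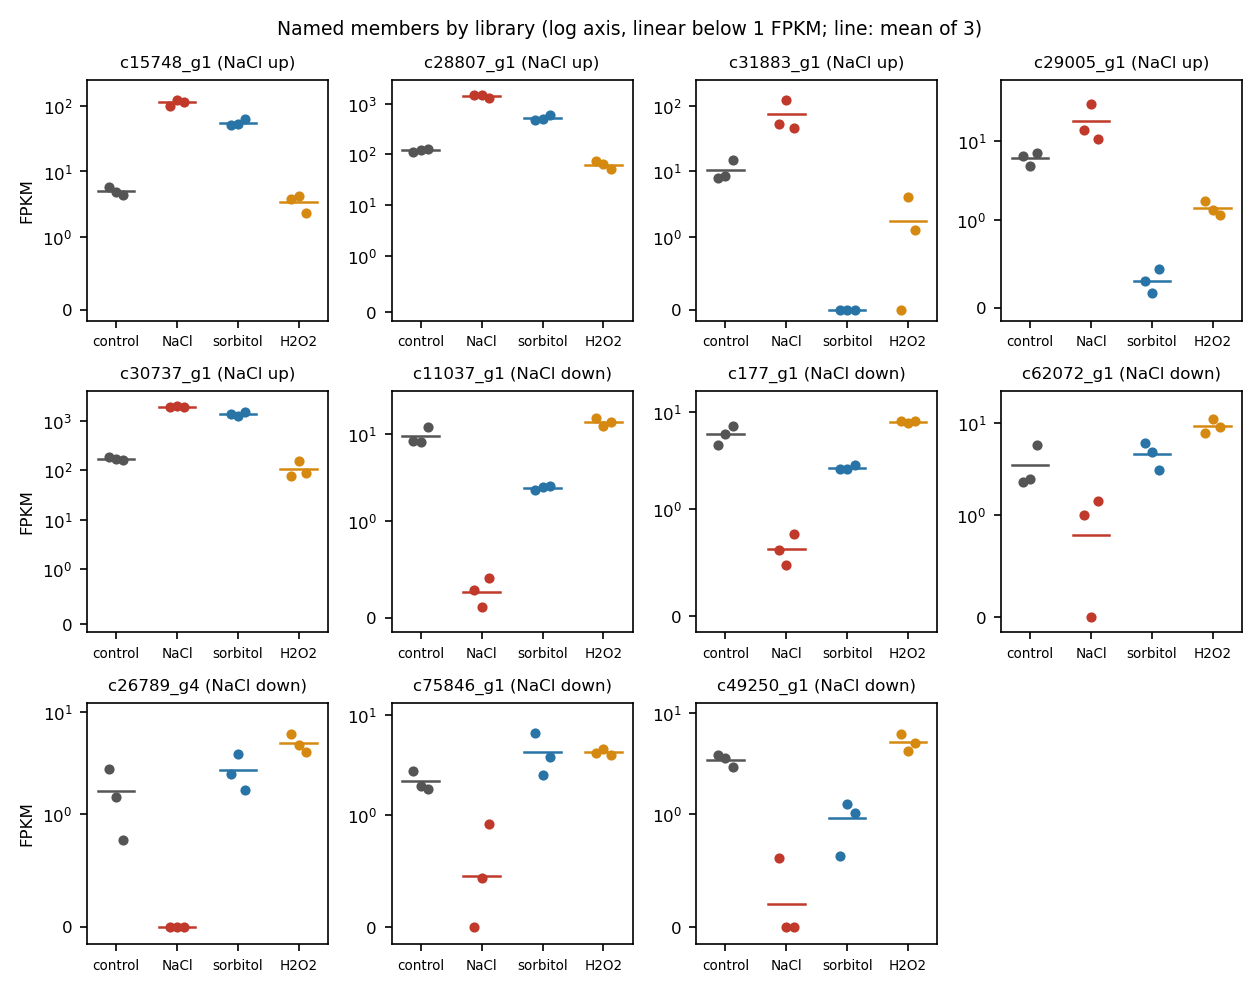
FPKM by library (y axis, logarithmic and linear below 1 FPKM) for the 11 members named by rule, in control, NaCl, sorbitol and H2O2 libraries (x axis); each point is 1 library and lines are means of 3. Sorbitol lies near NaCl in c30737_g1, at 0 in c31883_g1 and between control and NaCl in c11037_g1.

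When the genes tested were ranked by mean level and cut into 4 equal bins, the lowest bin held 0 members, since it lies below the level limit. From low to high, the next 3 bins held 15, 11 and 12 NaCl-high genes and 40, 19 and 8 NaCl-low genes. Each ID names a component and a gene within it, and 29 of the 38 NaCl-high genes and 43 of the 67 NaCl-low genes were the sole gene of theirs. Those are 76.3% and 64.2%, against 67.9% of all genes tested. No component held more than 1 member. Of the 15 genes near 0 with sorbitol, 14 were alone in their component.

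Other genes of a member's component were read beside it. The NaCl-high members had 16 tested genes beside them in 6 components, with medians of 0.78 for NaCl and 0.08 for H2O2. Of these 16, 4 differed from control in both directions of the class, against 15.2% of all genes tested, and 3 also passed the NaCl limit. The NaCl-low members had 52 in 21 components, with medians of -0.15 and 0.16. Of these 52, 21 had both directions, against 24.3% of all genes tested, and 4 also passed the NaCl limit. Genes of one component can share reads, so levels within it may have been divided between them.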

How the data were processed

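The 12 libraries of total RNA from D. salina were grouped by their titles, 3 in each of the 4 groups. The submitters' processing notes name cutadapt and RSEM, without versions, and the sources used here do not give the reference. Values in the authors' deposited table were taken as FPKM. This unit was inferred from values with 2 decimals that sum to 1065190 to 1133348 per library, since no source states it. Absolute depth cannot be had from FPKM, and a gene listed at 0 may still have been expressed.

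Differences were taken on a log2(FPKM + 1) scale, which understates those of low genes. A limma fit (version 3.58.1 under R 4.3.3) with a mean-variance trend covered the 12 libraries together. It tested the 27038 genes that reached 1 FPKM in 3 or more libraries, the 105 members among them. P-values were adjusted by Benjamini-Hochberg over all of these genes, at a threshold of 0.05. The fit was also run on simulated data with changes placed only in genes at or above the median level, which leaves genes near 0 uncovered. Every SE and adjusted p is from the fit to the 12 libraries, unless an alternative is named. Python 3.11.15 with pandas 2.3.3, numpy 2.4.6 and matplotlib 3.10.9 served for tables and plots.

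Genes named in each class are the 2 with the largest NaCl difference, the 2 with the largest H2O2 difference, and the 2 with the highest and the 2 with the lowest sorbitol difference; others are marked as chosen after their values were seen. The members and lists were chosen with earlier results of these data known. With 0 of 82333 IDs matched to the 16683 genes of the reference table, no pathway or marker lists could be run. Pseudocounts, scalings, filters, a replicate block and leaving out each library were tried as alternatives.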

Additional observations from a re-analysis of the deposited data

How the results depend on the processing

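The number of genes picked moved most. NaCl-high genes numbered 24 with a mean of at least 5 FPKM and 101 when the libraries of groups might overlap, and 26 to 70 with 1 library left out. NaCl-low genes numbered 103 with a pseudocount of 0.1, 31 with median-ratio scaling, 33 with a mean of at least 5 FPKM, 167 when libraries might overlap, and 65 to 159 with 1 library left out. A stricter level limit and looser separation change the count by construction. So does a smaller pseudocount, which enlarges every difference between separated libraries. Leaving out a library removes a separation condition and also changes the group means, and the part of each was not tested. For median-ratio scaling the cause was not tested. The NaCl and H2O2 directions of all 38 and all 67 members were kept under median-ratio scaling and equal sums. Median-ratio scaling shifted the median H2O2 difference of all genes tested by -0.08, and 30 of the 67 NaCl-low members still met the limits.

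Calls of members were steadier. NaCl-high genes that fell with sorbitol numbered 5 with a filter of at least 5 FPKM in 3 libraries, where 80 of the 105 members were tested, and 8 to 13 with 1 library left out. NaCl-low genes that fell with sorbitol numbered 13 to 21 with 1 library left out. NaCl-high genes with sorbitol below H2O2 numbered 4 with a pseudocount of 0.1, and 0 to 1 with 1 library left out; it was 1 without H2O2 replicate 1 and, in a setting chosen after seeing the data, 1 without NaCl replicate 3. All other counts of member calls stayed within 1.5 times those reported under the settings run. Of the alternative values for the named genes in sorbitol against control, 161 kept direction and side of the threshold, and c49250_g1 lost its call with a pseudocount of 0.1; the cause was not tested.

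With the replicate number as a replicate block, 14 NaCl-high genes rose and 11 fell with sorbitol and 15 NaCl-low genes fell. NaCl against sorbitol gave 32 NaCl-high genes and 45 NaCl-low genes, and sorbitol against H2O2 gave 19 and 43. Libraries sharing a number correlated at -0.0835 to 0.0470 in their deviations from group means over 18 pairs, and were therefore treated as unpaired. Depth limits the genes near 0, where the number of reads behind a value is unknown.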
